A study of Mus musculus with 8 samples.

Results

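The genes described here make, sense and move cholesterol in the liver. The list holds 28 symbols, sorted by role into the mevalonate steps, the post-squalene steps, regulators, uptake and transport inside the cell, esterification, and export. A gene was read from the probe set of highest mean among those the platform annotation gives to its symbol. Of the 28 genes, 26 had such a probe set and 25 passed the filter on weak signals, out of 18193 genes with a probe set and 12112 that passed. Acat2, which starts the mevalonate steps, and Soat2, which esterifies cholesterol in hepatocytes, had no probe set under their symbols and are not analysed here. Mvk (mevalonate kinase) was below the filter, with signals of 74.4 to 796 in control pools and 90.0 to 118 in MET KO + EGFRi arrays.

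Mouse liver RNA was hybridised to 8 Affymetrix arrays, covering 2 arms at days 0, 1, 2 and 5 after TCPOBOP, a compound that activates the nuclear receptor CAR and makes mouse hepatocytes divide. Both arms were Metff/ff:ERCre+/+ mice given TCPOBOP at 3 mg/kg by gavage. Control mice were littermates injected with corn oil, so their Met stayed floxed, and no canertinib diet is named for them. MET KO + EGFRi mice had 5 daily injections of tamoxifen (100 µl at 10 mg/ml), which activates Cre and deletes Met throughout the body, and ate a diet with the EGFR inhibitor canertinib, meant to give 80 mg/kg per day and begun 1 day before TCPOBOP. Each array read RNA of pooled livers, so a pool of an arm and day has no replicate. The number, sex and age of the mice, and whether day 0 livers had been given TCPOBOP, are not stated in the labels. No arm had tamoxifen, Met loss or canertinib alone, so their effects cannot be told apart, and neither can those of the diet itself. The comparisons ask how combined loss of MET and EGFR signalling alters the liver before and after this mitogen.

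Cholesterol is built from acetyl-CoA. The mevalonate steps end with squalene, and the post-squalene steps close and trim the sterol rings. When membranes of the endoplasmic reticulum are poor in sterol, SCAP carries the transcription factor SREBP2 (encoded by Srebf2) to the Golgi, where it is cut, and the freed part enters the nucleus and activates most genes of the pathway. INSIG1 and INSIG2 hold SCAP back when sterol is plentiful. The liver also takes up cholesterol from lipoproteins and, through the transporter pair ABCG5 and ABCG8, secretes it into bile.

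SREBP2 acts on promoters through sterol regulatory elements, often beside CCAAT boxes bound by NF-Y. The 250 bases before the start are shown for 4 synthesis genes that differed strongly between the arms on day 2 and for Insig1, the only member called between the arms over all days. They are from RefSeq (GRCm38.p6), written 5′ to 3′ on the strand of the gene. Capitals mark TCACNCCAC, a form of the sterol regulatory element, and CCAAT on either strand (ATTGG as printed).
Hmgcs1 (chr13:119690101-119690350, + strand): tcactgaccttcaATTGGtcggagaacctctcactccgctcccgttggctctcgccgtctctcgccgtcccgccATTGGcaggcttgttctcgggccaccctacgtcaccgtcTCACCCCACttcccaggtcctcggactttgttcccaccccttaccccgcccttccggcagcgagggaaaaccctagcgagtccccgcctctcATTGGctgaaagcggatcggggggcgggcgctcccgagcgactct
Idi1 (chr13:8885356-8885605, + strand): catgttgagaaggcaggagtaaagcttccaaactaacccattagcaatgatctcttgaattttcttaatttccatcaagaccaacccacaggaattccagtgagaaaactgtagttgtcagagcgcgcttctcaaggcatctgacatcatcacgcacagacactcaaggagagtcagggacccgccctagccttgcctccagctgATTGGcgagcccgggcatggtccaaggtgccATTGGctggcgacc
Cyp51 (chr5:4104698-4104947, - strand): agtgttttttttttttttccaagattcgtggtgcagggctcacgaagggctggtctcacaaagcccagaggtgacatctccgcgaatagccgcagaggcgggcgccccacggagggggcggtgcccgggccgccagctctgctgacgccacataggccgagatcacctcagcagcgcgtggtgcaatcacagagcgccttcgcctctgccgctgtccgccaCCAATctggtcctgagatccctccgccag
Msmo1 (chr8:64733579-64733828, - strand): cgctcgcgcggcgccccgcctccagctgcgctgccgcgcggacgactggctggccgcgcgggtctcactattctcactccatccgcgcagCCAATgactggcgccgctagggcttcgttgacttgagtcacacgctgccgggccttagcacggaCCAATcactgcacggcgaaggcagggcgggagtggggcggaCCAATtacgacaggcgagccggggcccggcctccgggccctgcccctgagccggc
Insig1 (chr5:28071162-28071411, + strand): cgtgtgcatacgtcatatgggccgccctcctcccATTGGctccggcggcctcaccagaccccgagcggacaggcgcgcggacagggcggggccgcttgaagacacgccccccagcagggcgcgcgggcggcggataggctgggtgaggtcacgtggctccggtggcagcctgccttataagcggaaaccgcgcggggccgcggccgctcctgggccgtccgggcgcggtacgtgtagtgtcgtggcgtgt

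A promoter entry of 300 bases, 250 before to 50 after the start, was found for 22 of the 28 genes. CCAAT was present on either strand in 20 of these 22 promoters, and TCACNCCAC in that of Hmgcs1 alone. In the printed stretch of Hmgcs1 the element lies 137 bases before the start, with CCAAT 237, 176 and 45 bases before it. Idi1 has CCAAT 45 and 14 bases before its start, Msmo1 160, 96 and 55, Cyp51 29 and Insig1 216. Among the 9767 genes kept in the fits that had a promoter entry, 42.1 percent held CCAAT and 1.54 percent held TCACNCCAC. Of the 17 synthesis genes that passed the signal filter, 14 had an entry and all 14 held CCAAT, including Ebp and Tm7sf2, whose signals differed little between arms or days. Acat2 and Scap were the entries without it. The matches describe letters only. The starts of Abcg5 and Abcg8, read in opposite directions, lie 110 bases apart at the nearer of the listed Abcg8 starts.

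The arrays had a median over 45101 probe sets of 224 to 251. Each array has the same trimmed mean of 500, so these similar levels say little about array or RNA quality. The defining hepatocyte markers were present, and the summed signal of 6 of them (Alb, Ttr, Apoa2, Tat, Cps1 and Serpina1c) ranged from 200681 to 329504 in control pools and from 218224 to 314602 in MET KO + EGFRi pools. Most Kupffer cell markers were higher in MET KO + EGFRi pools. All 8 passed the filter, and 6 of them were higher there on 4 of 4 days. The share of all genes so placed was not counted. Adgre1, among the 6, was nearly level on day 5 (2634.3 against 2621.5 in control). Clec4f was lower on day 5 (3655 against 4056 in control) and C1qb on day 0 (1691 against 1866). The sum of the 8 ranged from 11914 to 27516 in control pools and from 23588 to 41253 in MET KO + EGFRi pools. The stellate cell markers Dcn and Des went opposite ways, Dcn higher and Des lower in MET KO + EGFRi pools on each day, with Lrat below the filter, and their sum was 4847 to 5108 in control pools and 7057 to 10238 in MET KO + EGFRi pools. The endothelial sum overlapped between arms, at 2813 to 3733 and 2480 to 4013. The bile duct sum of Epcam, Krt19 and Krt7 was 688 to 1783 against 611 to 1364.6, with both keratin genes below the filter. The adrenal sum of Star, Cyp11a1 and Cyp11b1 was 478 to 1440 against 684 to 1027, with Star alone above the filter. Epcam was lower in MET KO + EGFRi pools on each day. In whole liver, fewer cells of a type cannot be told apart from less RNA per cell, and the part of these marker differences in the results below was not tested.

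The synthesis genes showed a shared course over the 8 arrays. In control livers most stood higher on day 1 than on day 0. In MET KO + EGFRi livers the median difference of day 1 from day 0 was smaller, and on day 2 most genes were at their lowest. For 13 of the 17 measured synthesis genes the highest of the 8 arrays was control day 1 and the lowest was MET KO + EGFRi day 2, an order found for 1.3 percent of all 12112 genes. The exceptions were Mvd, Tm7sf2, Ebp and Sc5d. This order was picked out after the values were seen.

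**Figure D1:**
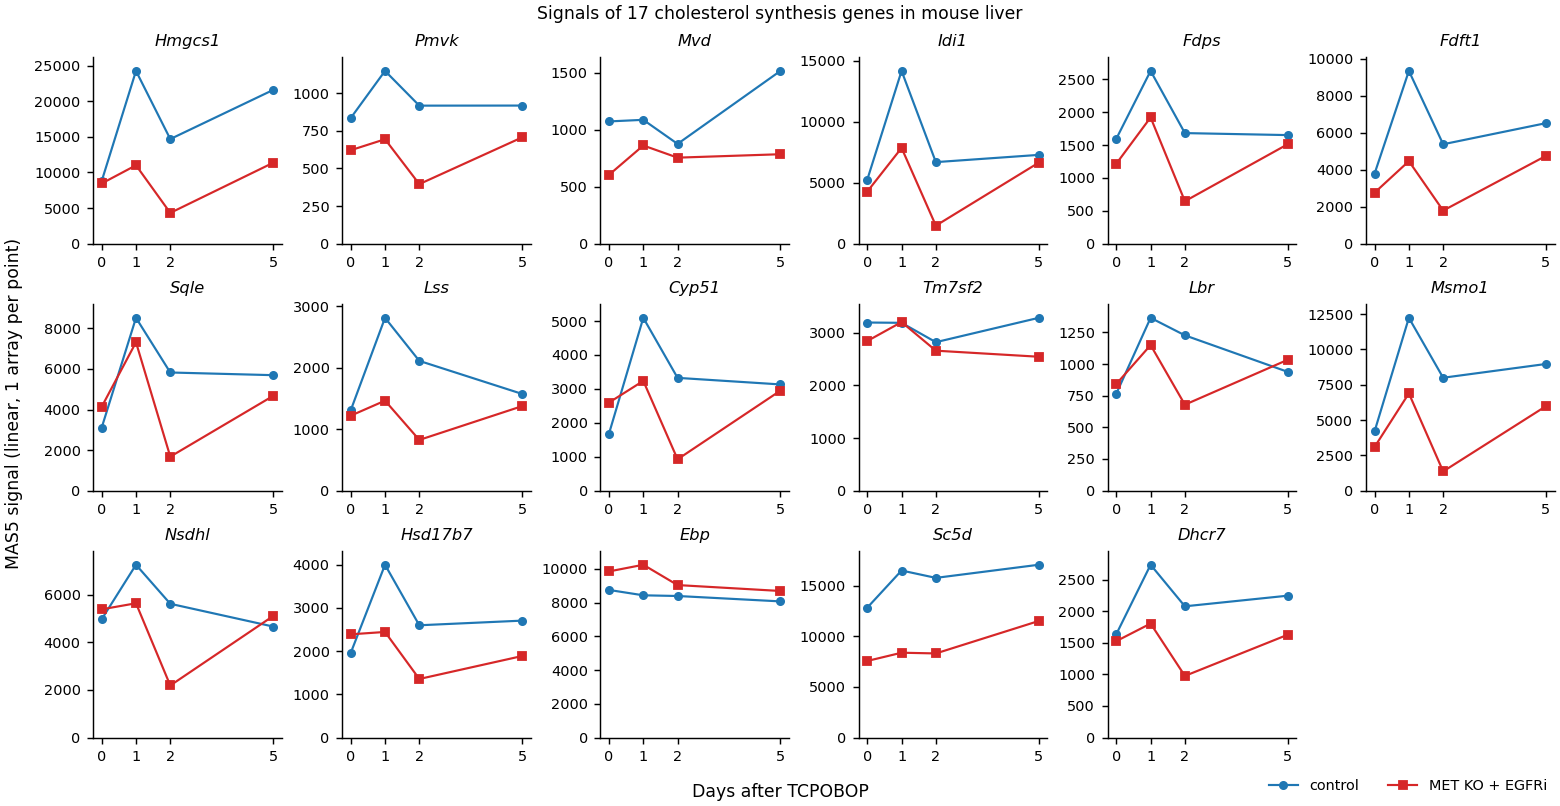
MAS5 signal on a linear axis from 0 (vertical) against days after TCPOBOP (horizontal) for 17 synthesis genes, with control in blue circles and MET KO + EGFRi in red squares, 1 array per point. In 13 panels the highest point is control day 1 and the lowest is MET KO + EGFRi day 2, while Ebp and Tm7sf2 are nearly flat.

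Among the mevalonate steps, Hmgcs1, which makes HMG-CoA, had signals of 8797, 24242, 14679.7 and 21571 in control pools, listed by day from 0 to 5. In MET KO + EGFRi it had 8452, 11002, 4320.1 and 11353. The arms were nearly level on day 0 and apart on the other 3 days, with control 3.40 times higher on day 2. Its other 3 probe sets above the filter also had control above MET KO + EGFRi on days 1, 2 and 5. On day 0 those 3 had control lower.

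Idi1, which isomerises the isoprene unit, had 5253, 14159, 6685 and 7278 in control pools and 4272, 7849.6, 1479.9 and 6640.1 in MET KO + EGFRi pools. On day 2 control was 4.52 times higher, and by day 5 the ratio was 1.10. A weaker probe set of Idi1 had control lower on day 5, at 2428 against 3182. Fdft1, the squalene synthase, had 3796, 9350.3, 5382 and 6524 against 2761, 4468, 1793 and 4754, lower in MET KO + EGFRi pools on every day. Fdps, which makes farnesyl pyrophosphate, had 1595, 2626, 1681 and 1651 against 1216, 1919, 646 and 1512.

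Pmvk and Mvd phosphorylate and decarboxylate mevalonate intermediates. Pmvk had 834, 1147, 916 and 917 in control pools and 621, 694, 396 and 706 in MET KO + EGFRi pools, so that the groups did not overlap. Mvd had 1072, 1086, 875 and 1514 against 604, 861, 754 and 784, again without overlap but with its smallest gap on day 2. Its weaker probe set had 461 in control pools and 52.2 in MET KO + EGFRi pools on that day. The latter lies below the 71 added before taking logs. On this weaker probe set the groups overlapped, with 412 in MET KO + EGFRi on day 5 and 269 in control on day 0. Its MET KO + EGFRi signal on day 0 was 172, above that of day 2. All 4 MET KO + EGFRi arrays lay below all 4 control arrays for 4 of the 25 members, against 2.75 percent of all genes. These were Pmvk, Mvd, Sc5d and Insig1, on their strongest probe sets.

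In the post-squalene steps Sqle and Cyp51 stood higher in MET KO + EGFRi than in control on day 0 and far lower on day 2. Sqle, the squalene epoxidase, had 3109.9, 8521, 5825 and 5693 in control pools and 4135, 7316, 1676 and 4671 in MET KO + EGFRi pools. Cyp51, the lanosterol demethylase, had 1682, 5095, 3325 and 3131 against 2597, 3236, 924 and 2949. On day 2 control was 3.48 times higher for Sqle and 3.60 times higher for Cyp51, and on day 5 the arms were near each other. The weaker probe set of Cyp51 shared the low day 2 value of MET KO + EGFRi (230.1, against 1291). On day 1 it also had control higher (1864 against 1118). Its order differed on the other days, with control higher on day 0 (752 against 641) and lower on day 5 (804 against 1373).

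Msmo1, a sterol methyl oxidase that acts after Cyp51, had the largest day 2 difference of the members. Its control signals were 4203, 12234, 7993 and 8968, and those of MET KO + EGFRi were 3094, 6888, 1360.3 and 5983. Control was 5.88 times higher on day 2, and 1.36 and 1.78 times higher on days 0 and 1. Nsdhl, the sterol dehydrogenase of the same complex, had 4962, 7248, 5610.5 and 4656 against 5379, 5632, 2184 and 5096, so only day 2 stood far apart.

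Lss, which closes the sterol rings as lanosterol, had 1308, 2813, 2112 and 1574 in control pools and 1220.2, 1465, 825 and 1376 in MET KO + EGFRi pools. Hsd17b7 had 1959, 3999, 2598 and 2706 against 2389, 2444, 1355 and 1887. Dhcr7, which catalyses a last step to cholesterol, had 1637, 2736, 2078 and 2247 against 1527, 1805, 976 and 1628. On these probe sets the 3 genes were nearly level or higher in MET KO + EGFRi on day 0 and lower there on days 1, 2 and 5. Weaker probe sets differed from this order. For Lss such a probe set had 348 in the control pool and 154 in that of MET KO + EGFRi on day 0. For Hsd17b7 another had 1869 in the control pool and 1539 in the other on day 0, and 1719.9 and 2062 on day 5.

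Lbr, which serves both as a sterol reductase and as a lamin receptor of the nuclear envelope, had 766, 1366, 1227 and 939 in control pools and 843, 1150.2, 679 and 1034 in MET KO + EGFRi pools. Tm7sf2 encodes a second enzyme for the same reduction. Its signals ran from 2824 to 3287 in control pools and from 2547 to 3207 in MET KO + EGFRi pools, and the groups overlapped. Ebp, the sterol isomerase, ran from 8078 to 8756 against 8695 to 10251, slightly higher in MET KO + EGFRi pools on each day.

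Sc5d, the lathosterol desaturase, had 12848, 16519, 15791 and 17089 in control pools and 7575, 8390.1, 8319 and 11527 in MET KO + EGFRi pools. As for the strongest probe set of Mvd, the gap was present on day 0. Also as there, MET KO + EGFRi was not lower on day 2 than on day 0. The 2 other probe sets of Sc5d were likewise lower in MET KO + EGFRi on each day.

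On day 2, 12 of the 25 members were at least 2-fold lower in MET KO + EGFRi, against 2.03 percent of all genes, and 0 were at least 2-fold higher, against 2.88 percent. Of these 12, 11 were synthesis genes and the other was Insig1. The median log2 difference (log2 of the signal plus 71, MET KO + EGFRi minus control) over the 17 synthesis genes was -1.28 on day 2, beside 0.02 over all genes. It was -1.42 over the 6 mevalonate genes and -1.04 over the 11 post-squalene genes. On days 0, 1 and 5 the synthesis median was -0.10, -0.64 and -0.35, beside -0.03, 0.01 and -0.01 over all genes. On day 1, 3 members (Hmgcs1, Fdft1 and Insig1) were at least 2-fold lower, against 2.63 percent of all genes, and on day 0 also 3 (Insig1, Npc1 and Stard4), against 2.18 percent. No member was 2-fold higher on day 0 or day 1, against 2.64 and 2.89 percent of all genes. On day 5 none of the 25 was at least 2-fold apart in either direction, against 2.16 percent of all genes lower and 2.25 percent higher. A single day rests on 1 array per arm, so no p-value was computed.

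**Figure D2:**
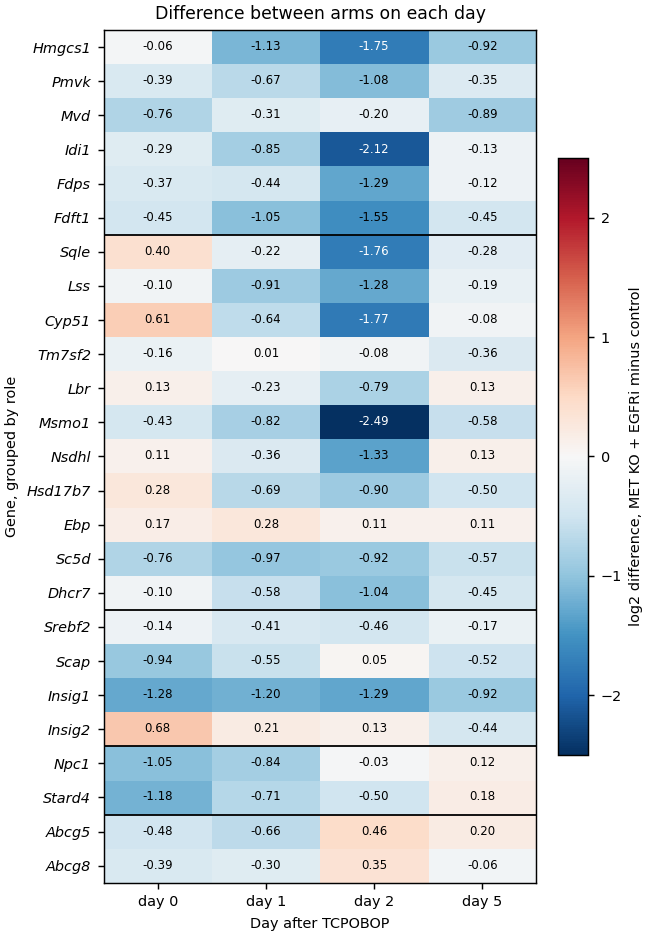
Log2 difference between arms (colour and printed value, MET KO + EGFRi minus control, after adding 71 to each signal) for 25 genes grouped by role (rows) on each day (columns). The deepest blue is in the day 2 column of the synthesis genes, down to -2.49 for Msmo1, while Insig1 is blue on all 4 days.

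Within the control arm, 9 members were at least 2-fold higher on day 1 than on day 0, against 2.58 percent of all genes. They were Hmgcs1, Idi1, Fdft1, Sqle, Lss, Cyp51, Msmo1, Hsd17b7 and Insig2. The synthesis median was 0.78 on day 1, 0.34 on day 2 and 0.44 on day 5 relative to day 0, on the log2 scale. Between days 1 and 2 all 17 synthesis genes were lower, against 51.9 percent of all genes, though only Idi1 by 2-fold, against 1.57 percent of all genes.

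Within the MET KO + EGFRi arm, Msmo1 and Insig2 were at least 2-fold higher on day 1 than on day 0, against 1.6 percent of all genes. The synthesis median relative to day 0 was 0.31 on day 1, -0.61 on day 2 and 0.18 on day 5. From day 1 to day 2, 8 members were at least 2-fold lower, against 1.82 percent of all genes. From day 2 to day 5, 8 were at least 2-fold higher, against 1.4 percent. The same genes made up both counts, namely Hmgcs1, Idi1, Fdps, Fdft1, Sqle, Cyp51, Msmo1 and Nsdhl, and both comparisons use the day 2 array. Idi1 was 5.30 times and Msmo1 5.06 times higher on day 1 than on day 2. On day 2, 5 members (Idi1, Sqle, Cyp51, Msmo1 and Nsdhl) were also at least 2-fold below day 0, against 2.09 percent of all genes, with Idi1 at 0.35 and Cyp51 at 0.36 of the day 0 signal. The comparisons with day 0 within an arm share that array.

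**Figure D3:**
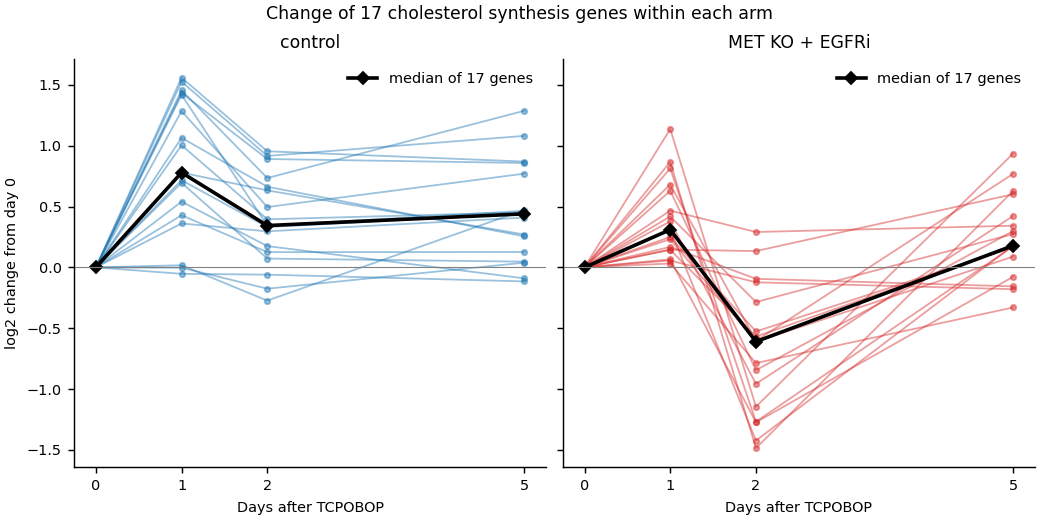
Log2 change from day 0 (vertical) against days after TCPOBOP (horizontal) for 17 synthesis genes in control (left) and MET KO + EGFRi (right), with 1 thin line per gene and the median in black. The control median stays above 0, at 0.78, 0.34 and 0.44, and that of MET KO + EGFRi is 0.31, -0.61 and 0.18.

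Averaged over the 4 days, Insig1 was the single member that passed the test between arms, against 0.165 percent of all genes called lower and 0.413 percent called higher. Insig1 is both a brake on SREBP2 and one of its targets. Its signals were 3607, 6130.4, 5285 and 5349.6 in control pools and 1448, 2637, 2118 and 2785 in MET KO + EGFRi pools, so that every MET KO + EGFRi array lay below every control array. Control was 2.49, 2.32, 2.49 and 1.92 times higher on days 0, 1, 2 and 5. Averaged over days, Insig1 was lower in MET KO + EGFRi than in control by 1.17 on the log2 scale (SE 0.13, adjusted p = 0.00989 by limma with Benjamini-Hochberg adjustment over 12112 genes). The adjusted p was 0.0917 without both arrays of day 1 and 0.0907 and 0.0922 without the control or the MET KO + EGFRi array of that day. Over 11 other settings it ran from 0.00586 to 0.0696, the latter in the fit without a day term.

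None of the 17 synthesis genes passed that test, which sets a mean difference against its spread between days. Sc5d came nearest, with a log2 difference of -0.80 (SE 0.13, limma adjusted p = 0.0529). It passed with the mean of its probe sets (-1.17, adjusted p = 0.0108), after quantile normalization (0.034) and with a filter at the upper quartile (0.0322). Mvd had -0.54 (adjusted p = 0.232), and passed with the mean of its probe sets (-0.89, 0.0396). Msmo1 had -1.08 (SE 0.32, adjusted p = 0.231), Hmgcs1 -0.97 (SE 0.25, 0.188), Fdft1 -0.88 (0.147), Idi1 -0.85 (0.323), Pmvk -0.62 (0.191) and Lss -0.62 (0.309). At an unadjusted p under 0.05, 14 of the 25 members were lower and 0 higher, against 5.99 and 6.12 percent of all genes. Of the synthesis genes, 10 were lower in MET KO + EGFRi pools on 4 of 4 days, and with Srebf2 and Insig1 the members so placed were 12, against 10.3 percent of all genes. These counts are for the strongest probe sets. Weaker ones above the filter were higher in MET KO + EGFRi for Hmgcs1 on day 0. For Idi1 the weaker one was higher there on days 0 and 5, and for Srebf2 on day 2.

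The mean over days hides how much rests on day 2. Without both arrays of day 2, the log2 differences were -0.03 for Sqle, -0.04 for Cyp51, -0.04 for Nsdhl and 0.01 for Lbr, in place of -0.46, -0.47, -0.36 and -0.19. The median of the 17 synthesis genes was -0.54 over all days and -0.38 without day 2, with 15 of 17 still negative.

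**Figure D4:**
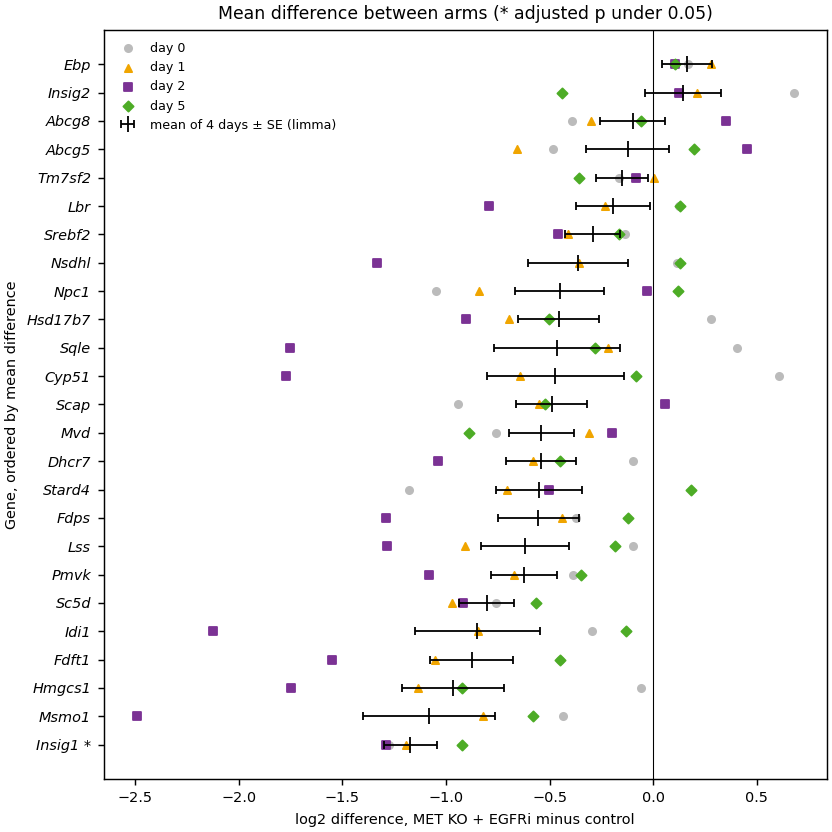
Log2 difference between arms (horizontal, MET KO + EGFRi minus control) for 25 genes ordered by mean (vertical), with coloured points for each day and a bar with whiskers for the mean over 4 days ± SE from limma. The day 2 squares of Msmo1, Idi1, Cyp51 and Sqle lie far to the left of their other days. The 4 points of Insig1, the only starred gene, lie close together.

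For the response to TCPOBOP (days 1, 2 and 5 against day 0, averaged over arms), limma called 0 members, against 0.421 percent of all genes higher and 0.0661 percent lower. At an unadjusted p under 0.05, Insig2, Insig1 and Fdft1 were higher and 0 were lower, against 6.21 and 3.87 percent of all genes. The difference in response between arms, tested as an interaction with 2 residual degrees of freedom, was called for 0 of 12112 genes, a background of 0 percent in either direction. At an unadjusted p under 0.05 there were 292 genes (2.41 percent) with a lower response in MET KO + EGFRi and 251 (2.07 percent) with a higher one. Hmgcs1 (-1.21, SE 0.41), Cyp51 (-1.44, SE 0.60) and Hsd17b7 (-0.98, SE 0.31) were among the former, each with an adjusted p of 0.999. Over 10 other settings the estimate ran from -1.28 to -1.09 for Hmgcs1. It ran from -1.50 to -0.67 for Cyp51 and from -1.04 to -0.34 for Hsd17b7.

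Of the other regulators, Srebf2 had 757, 856, 816 and 885 in control pools and 683, 627, 574 and 782 in MET KO + EGFRi pools. It was lower on 4 of 4 days by a small margin (log2 difference -0.29, limma adjusted p = 0.432). Its weaker probe set had -0.07, with an isolated low signal of 110.0 in control on day 2. Scap had 2915, 2538, 1774 and 3056 against 1484, 1712, 1846 and 2104, about 1.96 times higher in control on day 0 and level on day 2.

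Insig2, the other SCAP anchor, had a different course from Insig1. It had 4048, 12368, 6612 and 15997 in control pools and 6521, 14336, 7226 and 11774 in MET KO + EGFRi pools. In both arms it was above its day 0 signal on each later day, by 3.06, 1.63 and 3.95 times in control and 2.20, 1.11 and 1.81 times in MET KO + EGFRi. The averaged log2 change after TCPOBOP was 1.06 (SE 0.21, limma adjusted p = 0.108), and the difference between arms was 0.14 (adjusted p = 0.816). The weaker probe sets of Insig2 had lower signals in MET KO + EGFRi on day 2, with 1758 and 2150.4 against 3039 and 3448 in control. These day 2 signals were also below day 0 of the same arm, at 2447 and 3157. The strongest probe set showed neither.

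Npc1, which lets cholesterol leave lysosomes, had 1287, 1264, 1361 and 1162 in control pools and 585, 674, 1329.5 and 1269.9 in MET KO + EGFRi pools. It was 2.20 and 1.87 times higher in control on days 0 and 1 and level from day 2 on. Stard4, a carrier of cholesterol between membranes, had 3506, 4005, 3645 and 3669.7 against 1511, 2427, 2548 and 4173. Its MET KO + EGFRi signals were lower through day 2 and above control on day 5, where a nearly equal probe set had 3502 in control pools and 3332 in MET KO + EGFRi pools. Neither gene passed the test between arms (limma adjusted p = 0.459 for Npc1 and 0.355 for Stard4). On day 2, when the synthesis genes were lowest, Npc1 was at least 2-fold above its own day 0 in MET KO + EGFRi pools, the only member so placed, against 2.13 percent of all genes.

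The courses of the export pair resembled each other. Abcg5 had 3142, 2281, 2062 and 2060.4 in control pools and 2228, 1418, 2854 and 2374 in MET KO + EGFRi pools. Abcg8 had 3638, 2514, 2167 and 2771 against 2758, 2025, 2788 and 2657. In control both were below day 0 on each later day. In MET KO + EGFRi both were lowest on day 1 and higher on day 2, so that on day 2 the arms stood in the opposite order to that of days 0 and 1. The mean differences were -0.12 and -0.10 on the log2 scale (limma adjusted p = 0.858 and 0.849).

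**Figure D5:**
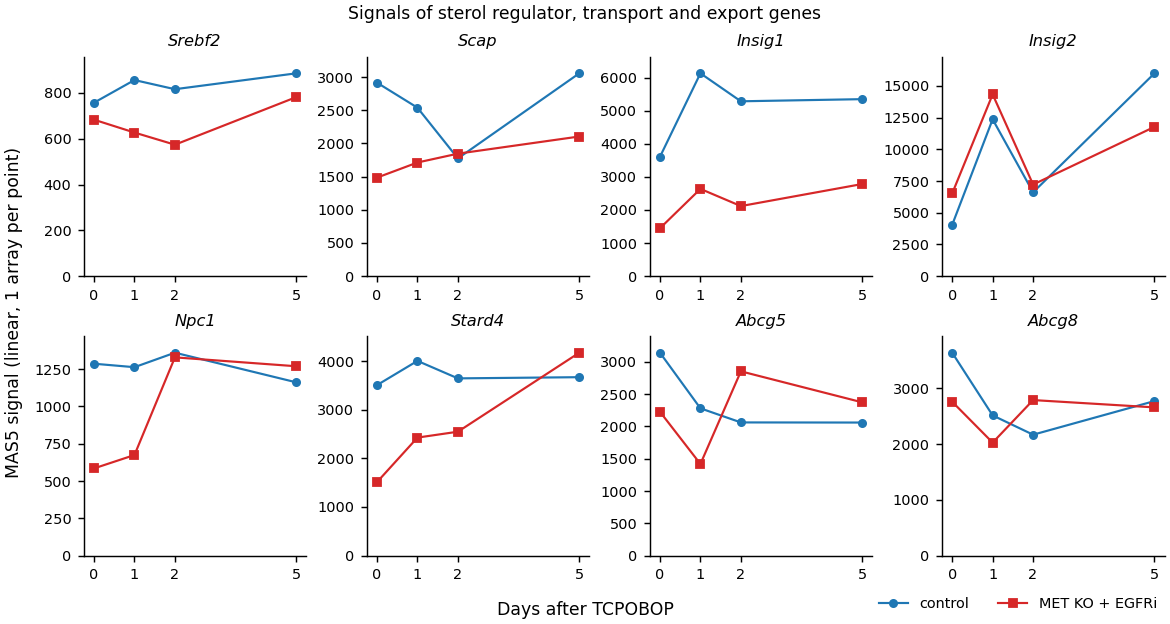
MAS5 signal on a linear axis from 0 (vertical) against days after TCPOBOP (horizontal) for 8 regulator, transport and export genes, with control in blue circles and MET KO + EGFRi in red squares, 1 array per point. Insig1 is separated on all days, Npc1 only on days 0 and 1, and the lines of Abcg5 and Abcg8 cross between days 1 and 2.

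A further list of 38 genes of sterol synthesis, sensing, uptake and transport was read, of which 29 had a probe set and 28 passed the filter. limma called 0 of them between arms at an adjusted p under 0.05, against 0.165 percent of all genes lower and 0.413 percent higher. Of the 28, 15 had a negative and 13 a positive difference, with a median of -0.01. On day 2 their median was 0.15, with 0 at least 2-fold lower and 3 at least 2-fold higher, against 2.03 and 2.88 percent of all genes. Those at least 2-fold apart on 2 or more days were Aacs, Abca1 and Lrp1. Aacs, which activates acetoacetate for lipid synthesis, had 2069, 1331, 959 and 1009 in control pools and 519, 577, 509 and 781 in MET KO + EGFRi pools (log2 difference -1.04, adjusted p = 0.13). Abca1, which loads cholesterol onto apolipoprotein A1, had 5523, 5212, 6270.3 and 5637 against 11399, 11611, 6350.5 and 6732, so it was higher in MET KO + EGFRi on days 0 and 1 and near control on day 2. The endocytic receptor gene Lrp1 had 4283, 2540.2, 2699 and 3619.5 against 5696, 6323, 5576 and 3491. Srebf1, the paralog of Srebf2 that drives fatty acid genes, was singled out after its values were seen. It had 7898, 6461, 4069.9 and 4547 in control pools and 3304, 4134, 6823 and 4659 in MET KO + EGFRi pools, so on day 2 it stood on the opposite side of control from most synthesis genes.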

How the data were processed

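Liver RNA of 8 groups was read on 1 Affymetrix array each, from 6 µg of total RNA of pooled livers per the labels' protocols. The deposited intensity values were computed with MAS5, per the submitters' processing notes. They are linear, and each array's mean, trimmed by 2 percent at each end, is 500. The MAS5 version and detection calls are not given in the sources used here. The number of arrays limits the precision.

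Left out were 64 control probe sets. Of the others, 34945 had 1 gene symbol in the platform table, 932 several and 9160 none. The values used are log2(signal + 71), where 71 is the 25th percentile of the signals; this understates folds of weak genes. Genes whose mean over the 8 arrays reached 8.24, the midpoint of all probe sets on that scale, were kept. Alternatives were other pseudocounts, filters, probe set rules and normalizations, fits without the variance trend or the day term, robust moderation, a 1.5-fold threshold, and leaving out arrays or days. The probe sets of Hmgcs1, Pmvk and Msmo1 end in _a_at (transcripts of 1 gene) and that of Lss in _s_at, which can bind related RNAs.

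limma (3.58.1, R 4.3.3) was run with a term for arm and one for day, which leaves 3 residual degrees of freedom, and with a trend in the prior variance. Calls had a Benjamini-Hochberg adjusted p under 0.05 over 12112 genes. With the day term, the p-values set a difference against how far the arm difference varies between days, not against spread between animals. The response to TCPOBOP is tested against the same variation, so changes over the later days that both arms share do not enter its test. Members, lists, motifs and tests were chosen with earlier results of these data known. Any member could be named, and other pathway genes if called or at least 2-fold apart between arms on 2 or more days.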

Additional observations from a re-analysis of the deposited data

How the results depend on the processing

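Each value rests on 8 arrays without replicates, and weak signals carry the pseudocount. The labels give no replicate numbers to block on, and the day term already matches the arms within each day. Between the arms limma called 70 genes of 12112. It called 28 without a filter, 41, 21 and 40 without both arrays of days 0, 1 and 2, and 20 to 57 without 1 array. After TCPOBOP it called 59. The count was 26 without a filter, 35 with the mean of probe sets, 34 without a variance trend, 22 and 15 without both arrays of days 1 and 5, and 4 to 49 without 1 array. Members called between arms numbered 1, and 2 with a filter at the upper quartile or quantile normalization, 3 with the mean of probe sets, 0 without a day term or without day 1, and 0 to 1 without 1 array. Over all genes, 90 were called with that filter, 70 after quantile normalization and 62 with the mean of probe sets. With a 1.5-fold threshold the members lower in MET KO + EGFRi on days 0, 1 and 5 were 6, 13 and 3, in place of 3, 3 and 0, against 8.17, 8.24 and 7.78 percent of all genes at that threshold. The same threshold gave 14 lower from day 1 to 2 and 13 higher from day 2 to 5 in that arm, in place of 8 and 8, against 7.07 and 6.16 percent of all genes. Without a filter 1 member, Mvk, was 2-fold lower on day 5. With the mean of probe sets 5 members in place of 9 were 2-fold higher in control on day 1. For both, the share of all genes under the same setting was not counted. The log2 difference between arms changed sign for Lbr without both arrays, or either one, of day 2 (0.0074), Insig2 likewise of day 0 (-0.034) and Abcg5 of day 1 (0.057). Over single arrays left out it ran from -0.30 to 0.0074 for Lbr, -0.034 to 0.34 for Insig2 and -0.31 to 0.057 for Abcg5. None of these differences was called. The difference in response could not be fitted without an array of day 0, nor the response to TCPOBOP without both, and called 0 genes in all settings run. The cause of these shifts was not tested beyond the fewer genes or arrays in the fit.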
